A study of Homo sapiens with 9 samples.

Results

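ARID2 is the AT-rich interaction domain subunit that defines PBAF, 1 of the forms of the SWI/SNF chromatin remodelling complex, whereas ARID1A and ARID1B are the alternative ARID subunits of the BAF form. The regions described here are 2697 binding sites of ARID2 in HepG2 cells, a human liver cancer line. These sites were annotated as intron or distal and shared no base with a binding site of ARID1A or ARID1B. They were chosen by measured values, as the intron or distal peaks of the ARID2 list with no overlap of at least 1 bp with any peak of the other 2 ARID lists. They made up 2697 of 4045 intron and distal ARID2 peaks, of 12995 ARID2 peaks and of 55293 peaks in the 4 lists of the series. Of the 2697 ARID2-alone peaks, 1630 were intron peaks and 1067 were distal peaks, both at least about 1000 bp from the nearest transcription start in the deposited annotation. Of the members, 830 (30.8%) lay under 2 kb from the nearest start, within the promoter distance of 2 kb that the paper's text gives. ChIP-seq had been run on untreated HepG2 cells with antibodies to ARID1A, ARID1B, ARID2 and SNF5, in 2 libraries for each antibody beside 1 input library, on MNase-digested, formaldehyde-fixed chromatin. The 2 libraries of an antibody were merged into 1 deposited peak list, so that no value below carries a replicate error, and the read depth behind a peak is unknown. Intervals are 95% Wilson intervals for counting error over peaks. Fisher tests below compare lists of peaks, and neighbouring peaks are not independent.

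SWI/SNF complexes use the energy of ATP to move or evict nucleosomes, and they act at promoters as well as at enhancers, the distant elements that raise transcription in a given cell type. SNF5, also called SMARCB1, is a core subunit common to BAF and PBAF, so that an SNF5 peak is a readout of the complex that the choice of peaks did not use. PBAF also carries PBRM1 and BRD7, which are not among the antibodies used here. In liver cells, enhancers are typically bound by HNF4A, HNF1, FOXA and C/EBP factors.

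The sequences below are 300 bp at the midpoints of 7 ARID2-alone peaks, given on the plus strand of hg19. The first 4 are the widest intron and distal peaks with and without SNF5, and capitals in them mark any of 17 searched motifs. In the last 3, the widest peaks not already shown that hold motifs that were frequent relative to other ARID2 peaks, capitals mark an HNF1, GATA or TEAD motif in that order.
AXIN2, intron, chr17:63553604-63553903: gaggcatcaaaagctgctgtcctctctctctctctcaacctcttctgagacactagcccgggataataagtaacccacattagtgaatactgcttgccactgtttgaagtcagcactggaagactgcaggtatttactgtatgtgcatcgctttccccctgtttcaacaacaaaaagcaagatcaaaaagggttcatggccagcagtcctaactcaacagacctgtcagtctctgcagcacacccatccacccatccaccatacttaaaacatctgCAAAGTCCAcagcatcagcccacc
PGAP1, intron, chr2:197790186-197790485: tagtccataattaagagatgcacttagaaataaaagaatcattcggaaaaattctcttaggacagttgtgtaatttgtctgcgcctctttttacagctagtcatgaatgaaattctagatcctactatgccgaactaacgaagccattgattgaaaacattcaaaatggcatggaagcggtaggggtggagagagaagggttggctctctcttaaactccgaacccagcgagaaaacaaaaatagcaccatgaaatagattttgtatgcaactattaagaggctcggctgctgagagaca
EVA1A, distal, chr2:75798341-75798640: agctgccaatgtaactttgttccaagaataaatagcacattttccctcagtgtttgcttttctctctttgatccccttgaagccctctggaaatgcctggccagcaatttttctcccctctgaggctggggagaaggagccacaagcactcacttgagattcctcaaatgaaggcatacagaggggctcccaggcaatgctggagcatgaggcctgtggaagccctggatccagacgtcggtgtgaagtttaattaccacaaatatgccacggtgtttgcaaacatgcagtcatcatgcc
LINC00669, distal, chr18:37381520-37381819: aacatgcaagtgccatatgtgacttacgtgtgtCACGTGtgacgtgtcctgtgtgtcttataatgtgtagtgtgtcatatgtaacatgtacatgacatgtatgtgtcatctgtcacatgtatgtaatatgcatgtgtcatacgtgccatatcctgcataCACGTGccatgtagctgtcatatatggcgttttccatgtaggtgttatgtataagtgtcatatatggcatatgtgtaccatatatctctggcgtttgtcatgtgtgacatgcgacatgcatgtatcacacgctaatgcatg
FAM168B, distal, chr2:131852499-131852798: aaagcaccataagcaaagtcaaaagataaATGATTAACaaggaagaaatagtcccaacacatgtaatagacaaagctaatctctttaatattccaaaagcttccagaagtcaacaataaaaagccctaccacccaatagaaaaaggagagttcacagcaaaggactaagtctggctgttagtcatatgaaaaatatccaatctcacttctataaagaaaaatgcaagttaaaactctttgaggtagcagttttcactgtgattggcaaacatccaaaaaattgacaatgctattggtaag
ZNF217, intron, chr20:52196815-52197114: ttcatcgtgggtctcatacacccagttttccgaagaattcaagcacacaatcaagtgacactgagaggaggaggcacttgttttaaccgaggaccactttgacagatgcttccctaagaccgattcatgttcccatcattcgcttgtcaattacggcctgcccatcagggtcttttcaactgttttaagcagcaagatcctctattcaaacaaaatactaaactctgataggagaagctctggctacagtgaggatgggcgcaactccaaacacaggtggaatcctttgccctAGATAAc
SPTSSA, intron, chr14:34930117-34930416: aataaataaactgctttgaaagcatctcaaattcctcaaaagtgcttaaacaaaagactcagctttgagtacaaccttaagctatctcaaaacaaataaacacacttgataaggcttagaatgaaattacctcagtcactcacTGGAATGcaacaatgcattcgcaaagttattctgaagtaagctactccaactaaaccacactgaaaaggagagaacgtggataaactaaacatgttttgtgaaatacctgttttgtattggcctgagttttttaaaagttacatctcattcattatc

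The window at AXIN2, a gene of Wnt signalling that encodes a scaffold of beta-catenin destruction, held the HNF4 motif CAAAGTCCA. The window at LINC00669 held the E-box CACGTG at 2 places, while those at PGAP1 and EVA1A held no searched motif. The intron window at PGAP1 had a GC content of 39.7% and 8 CpG, against 47.7% and 2 CpG at AXIN2.

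ARID2-alone peaks were about as narrow as the alone peaks of the other ARIDs, and many had an ARID1A or ARID1B peak nearby. Their median width was 147 bp, with quartiles of 87 and 211 bp and a range of 52 to 1212 bp, and together they covered 451.5 kb. The median width was 147 bp in ARID1A-alone and 138 bp in ARID1B-alone intron and distal peaks. The gap to the nearest ARID1A or ARID1B peak had a median of 1612 bp, with quartiles of 458 and 12748 bp. It was at most 100 bp at 229 peaks, at most 1000 bp at 1071 peaks (39.7%, 37.9 to 41.6%) and above 100 kb at 155 peaks. ARID1A was the nearer at 1646 peaks (61.03%). ARID1A also had more peaks than ARID1B in all, and the part of peak number in this share was not tested. The intron and distal peaks had similar medians, of 1543 and 1750 bp, as the cumulative plot of gaps shows. At the edge of the rule, 6 peaks adjoined another ARID peak with a gap of 0 bp, among them intron peaks at USP7, which encodes a deubiquitinase, and at SLC43A1, which encodes an amino acid transporter, and 7 peaks counted as shared overlapped by 2 bp, among them peaks at VAC14, HES7 and GALNT13. The overlap of the 1348 shared intron and distal ARID2 peaks had a median of 138 bp and was at most 10 bp at 39 of them. A rule of no reciprocal overlap of at least 50% would have kept 3557 peaks, and a rule of no other ARID within 1000 bp would have kept 1626. The 1000 bp rule kept 1081 of 1904 ARID1A-alone and 3097 of 3951 ARID1B-alone intron and distal peaks.

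**Figure D1:**
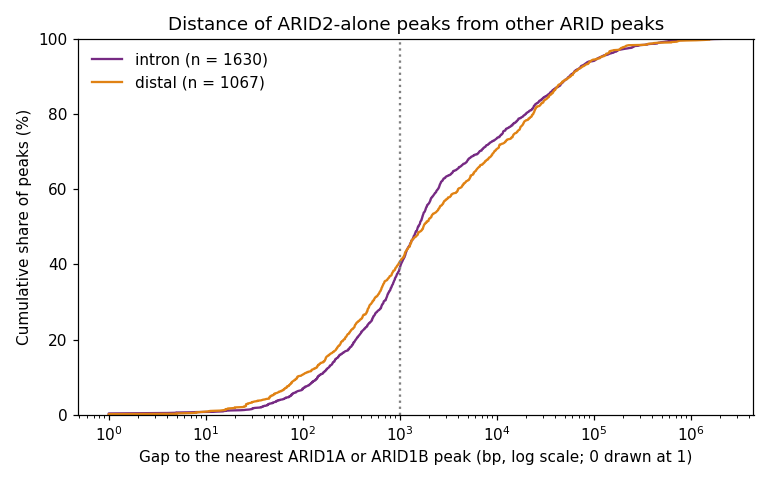
Cumulative share of ARID2-alone peaks (y axis, %) against the gap to the nearest ARID1A or ARID1B peak (x axis, bp, log scale), for intron and distal peaks. The dotted line marks 1000 bp, within which 39.7% of all ARID2-alone peaks had another ARID peak.

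Fewer ARID2-alone peaks than shared ARID2 peaks were overlapped by SNF5. An SNF5 peak overlapped 1210 of 2697 (44.9%, 43.0 to 46.8%), with 44.05% of the intron and 46.1% of the distal peaks. The share over all ARID2 peaks, promoters included, was 67.2%. In the promoter class the share was likewise lower for ARID2 peaks alone, at 51.1%, than for shared ones, at 87.4%. It was 92.1% in the 1348 shared intron and distal ARID2 peaks, 47.3 percentage points above the ARID2-alone peaks (interval of the difference 44.8 to 49.6), with an odds ratio of 0.0694 for alone against shared (Fisher's exact test, two-sided, adjusted p = 5.32e-212 over 6 comparisons). The ARID2-alone peaks were lower on 21 of 21 chromosomes with at least 10 peaks in both sets. The shared peaks were also wider, with a median of 222 bp. Within 5 strata of width the ARID2-alone share went from 35.4% in the narrowest to 71.1% in the widest, and the shared one from 81.5 to 97.1%, with a Mantel-Haenszel odds ratio of 0.0886. The plot of overlap by width shows the 2 sets apart in all 5 strata.

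**Figure D2:**
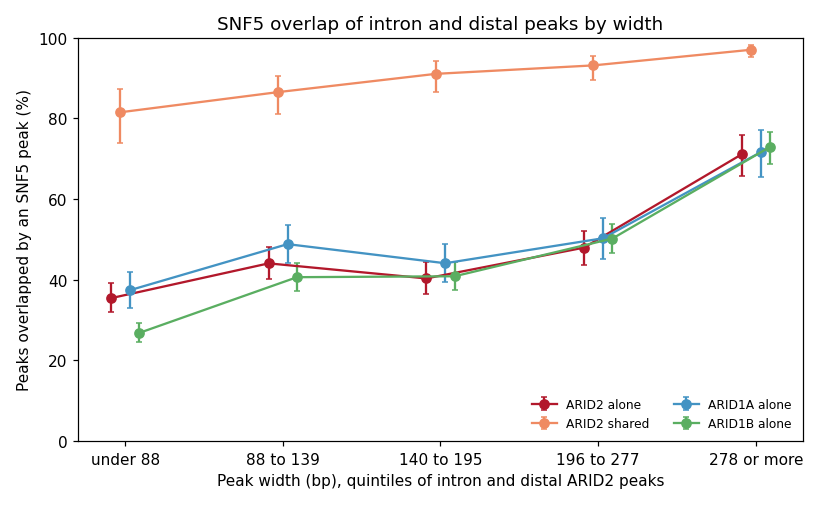
Share of intron and distal peaks overlapped by an SNF5 peak (y axis, %) in 5 strata of peak width (x axis, bp), for ARID2 alone, ARID2 shared, ARID1A alone and ARID1B alone. Points are shares and bars are 95% Wilson intervals. The shared ARID2 peaks lie above the ARID2-alone peaks in every stratum, by 81.5 against 35.4% in the narrowest.

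Against the peaks of the other ARIDs that were likewise alone, the SNF5 share of ARID2-alone peaks differed little. It was 48.0% in 1904 ARID1A-alone peaks, 3.09 points above ARID2 alone (interval 0.163 to 6.01, odds ratio 0.883, Fisher's exact test, adjusted p = 0.0412, same direction on 17 of 21 chromosomes). It was 41.9% in 3951 ARID1B-alone peaks, 2.93 points below (interval 0.501 to 5.35, odds ratio 1.13, Fisher's exact test, adjusted p = 0.0228, same direction on 11 of 22 chromosomes). Both calls were lost under several alternatives. Within width strata both adjusted p were 0.0570 (Mantel-Haenszel chi-square test), and with no other ARID within 1000 bp the shares were 31.9% for ARID2, 34.7% for ARID1A and 33.8% for ARID1B, where the odds ratio to ARID1B turned to 0.918.

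SNF5 overlap went together with the nearness of another ARID. An SNF5 peak overlapped 691 of 1071 ARID2-alone peaks with an ARID1A or ARID1B peak within 1000 bp (64.5%, 61.6 to 67.3%) and 519 of 1626 peaks without one (31.9%, 29.7 to 34.2%). Of the 1210 peaks with SNF5, 851 lay wholly inside their SNF5 peak and 611 (50.5%) lay in an SNF5 peak that also overlapped ARID1A or ARID1B elsewhere along its length. Over all 20718 SNF5 peaks, 43.7% overlapped ARID1A or ARID1B, and of the 1119 that held an ARID2-alone peak 48.6% did. The 1119 SNF5 peaks that held an ARID2-alone peak had a median width of 1035 bp and a median deposited score of 22, against 518 bp and 19 in the other 19599 SNF5 peaks. Where such an SNF5 peak also held ARID1A or ARID1B, the median width was 1702 bp and the median score 24, against 660 bp and 20 where it held neither. Of the 1487 ARID2-alone peaks without SNF5, 694 (46.7%) had an SNF5 peak within 1000 bp. Neither SNF5 nor another ARID lay within 1000 bp of 719 peaks (26.7%, 25.02 to 28.4%), with 25.6% of the intron and 28.2% of the distal peaks. The enrichment of these 719 peaks was not compared with that of the others, since the ARID2 list carries no score.

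The widest intron peaks lay between 1091 and 5792 bp from the nearest start. The widest intron peak, of 1018 bp, was in AXIN2 (chr17:63553245-63554262), 1091 bp from the transcription start, partly overlapped by an SNF5 peak of 7060 bp and 172 bp from an ARID1B peak. LITAF, which encodes a lysosomal membrane protein, held a peak of 858 bp (chr16:11677911-11678768), 1887 bp from the start and 2429 bp from the nearest ARID1A peak. SEPP1, the gene of the selenium carrier of plasma that the liver secretes, held one of 801 bp (chr5:42813751-42814551), 1967 bp from the start. TRIM71, which encodes an RNA-binding ubiquitin ligase of early development, held one of 778 bp, and PTGES3, which encodes a cochaperone of HSP90, one of 768 bp. All 5 were overlapped by SNF5.

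Of the 5 widest distal peaks, 4 were overlapped by SNF5. The exception was the widest, of 1212 bp, near LINC00669 (chr18:37381064-37382275), where the nearest other ARID peak was 1549244 bp away and the nearest SNF5 peak 2971745 bp away. The other 4 were near EVA1A (744 bp, chr2:75798119-75798862), GZF1 (718 bp), AP006216.12 (705 bp) and PARD6B (704 bp). The peak near EVA1A, an autophagy gene, lay under an SNF5 peak with a score of 35 and 10687 bp from the nearest ARID1A peak.

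The ARID2-alone peaks under the SNF5 peaks of highest score were 52 to 348 bp wide and close to another ARID. These were a distal peak of 122 bp near AL355149.1 (SNF5 score 52), a distal peak of 52 bp near SELRC1 (score 48), a distal peak of 52 bp near PGAM5P1 (score 46), an intron peak of 269 bp in ACSM5, a gene of medium-chain fatty acid activation (score 45), and an intron peak of 348 bp in SNX29 (score 44). Their gaps to the nearest other ARID peak were 97, 26, 78, 75 and 175 bp. The score is the one deposited for the SNF5 list and was not compared with the ARID lists, which have none.

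By the deposited distances, ARID2-alone peaks lay within 5000 bp of a gene start more often than the sets compared. Their median distance to the nearest start was 4089 bp, with 2663 bp for intron and 7195 bp for distal peaks, against 6037 bp for shared ARID2 peaks, 5308 bp for ARID1A alone and 9433 bp for ARID1B alone. A start lay within 5000 bp of 1478 ARID2-alone peaks (54.8%, 52.9 to 56.7%), while the share over all intron and distal ARID2 peaks was 51.3%. It was 44.2% in shared ARID2 peaks (odds ratio 1.53, adjusted p = 4.44e-10, Fisher's exact test over 6 comparisons), 48.3% in ARID1A-alone peaks (adjusted p = 1.39e-05) and 31.9% in ARID1B-alone peaks (odds ratio 2.59, adjusted p = 7.26e-77). These comparisons were added after the distances had been seen. Among distal peaks alone the first 2 differences were smaller, at 40.1% against 36.2% and 37.7%, and did not pass the test (adjusted p = 0.1499 and 0.266, Fisher's exact test). These 2 values were adjusted over the start distance comparisons of distal peaks only.

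The intron peaks were mostly in first introns, which lie next to the promoter and often hold regulatory elements. In the Gencode v44 annotation on GRCh37, the midpoint of 1269 of 1630 ARID2-alone intron peaks (77.9%, 75.8 to 79.8%) fell in a first intron of at least 1 transcript and in no exon. The share over all intron ARID2 peaks was 74.8%. It was 67.2% for the shared ARID2 peaks (odds ratio 1.72, adjusted p = 2.85e-07, Fisher's exact test, same direction on 12 of 17 chromosomes), 68.1% for ARID1A alone (odds ratio 1.64, adjusted p = 6.79e-08, 18 of 21 chromosomes) and 60.9% for ARID1B alone (odds ratio 2.26, adjusted p = 1.36e-29, 21 of 21 chromosomes). The ARID2-alone intron peaks also lay nearer to a start than the shared ones, with medians of 2663 and 4250 bp. First intron shares were not compared at equal start distance, so the part of distance in them was not tested. SNF5 overlapped 43.8% of the first intron and 44.9% of the other intron ARID2-alone peaks. The nearest gene of 1451 ARID2-alone peaks (53.8%) also had an ARID2 peak of the promoter class, and that of 1468 (54.4%) an ARID1A peak of that class. The 2 shares were 53.2 and 56.4% for shared ARID2 peaks, 45.5 and 48.2% for ARID1A-alone peaks and 34.9 and 35.6% for ARID1B-alone peaks. In the later annotation, 316 ARID2-alone peaks (11.7%) lay within 1000 bp of a transcript start that the deposited classes did not use. The share was 15.5% for shared ARID2, 11.7% for ARID1A-alone and 4.10% for ARID1B-alone peaks. At this limit the shared peaks, not the ARID2-alone peaks, had the highest share.

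**Figure D3:**
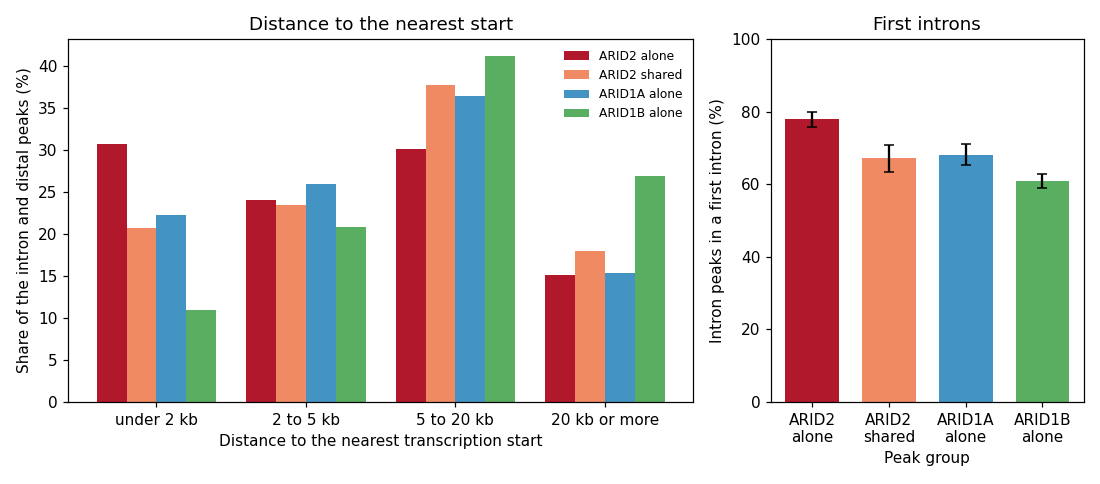
Left, share of each set of intron and distal peaks (y axis, %) by distance to the nearest transcription start (x axis). Right, share of intron peaks whose midpoint is in a first intron (y axis, %), with 95% Wilson intervals. ARID2-alone intron peaks were in first introns at 77.9%, the highest of the 4 sets.

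The deposited chromatin states of the peaks, with names such as active promoter and strong enhancer, could be tied to the peaks on chromosome 1 only. Where peaks of 2 ARID lists overlapped, they carried the same state in 696 of 815 pairs on chromosome 1 (85.4%) and in 4039 of 9439 pairs on the other chromosomes (42.8%), with a range of 34.4 to 59.8% by chromosome. On chromosome 1, 79.3% of promoter-class and 36.0% of intron and distal ARID2 peaks were in the active promoter state. On the other chromosomes, the medians of the 2 shares were 63.3 and 62.6%. Outside chromosome 1 the states could thus not be tied to their peaks, and the cause was not tested.

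On chromosome 1, ARID2-alone peaks were divided between enhancer and promoter states. Of 243 peaks, 110 (45.3%, 39.1 to 51.6%) were in an enhancer state, 97 of them strong, and 122 (50.2%) in a promoter state, 89 of them active. The distal peaks were in an enhancer state at 49.1% and the intron peaks at 42.3%. The peaks with SNF5 were in an enhancer state at 52.8% (43.4 to 62.1%, n = 106) and those without at 39.4% (31.6 to 47.8%, n = 137). The intervals overlap, which does not test the difference, and no test of it was run. All 13 peaks in a weak enhancer state were without SNF5. The enhancer share was 65.7% in ARID1B-alone peaks on this chromosome (odds ratio 0.432, Fisher's exact test, adjusted p = 2.67e-06), 53.3% in ARID1A-alone peaks (odds ratio 0.726, adjusted p = 0.236) and 50.5% in shared ARID2 peaks (odds ratio 0.811, adjusted p = 0.489). Over all chromosomes, with the column as deposited, the enhancer share was 26.6% in ARID2-alone peaks and 24.2% in all ARID2 peaks, against 30.3% in shared ARID2, 30.5% in ARID1A-alone and 52.3% in ARID1B-alone peaks (adjusted p = 0.0228, 0.00940 and 3.39e-98, Fisher's exact test). These values include the chromosomes on which the states could not be tied to their peaks, so they are not a measure of the chromatin at these sites.

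**Figure D4:**
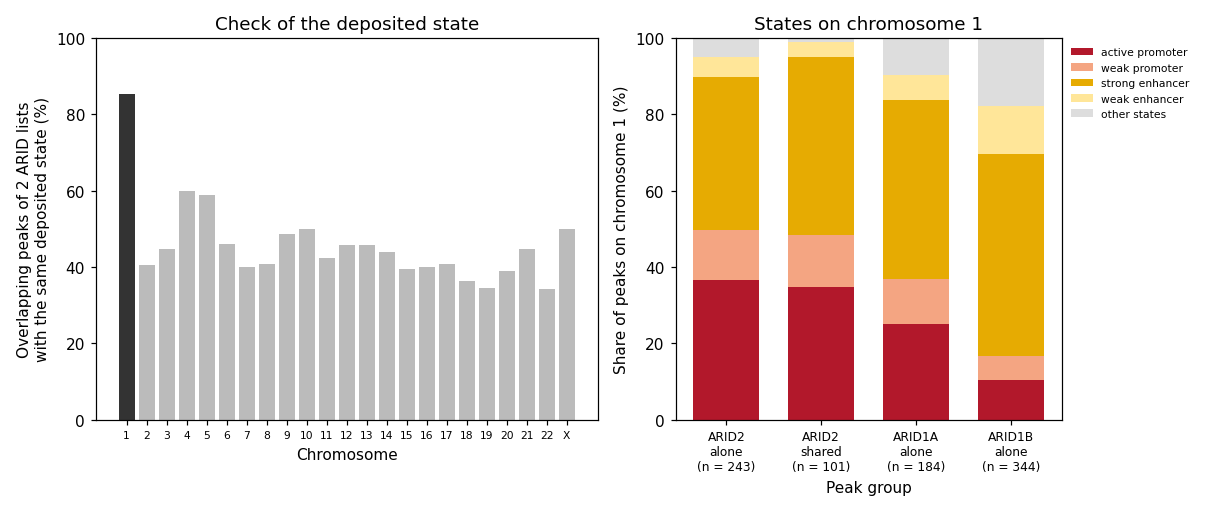
Left, share of overlapping peak pairs of 2 ARID lists that carry the same deposited chromatin state (y axis, %) by chromosome (x axis), with chromosome 1 in black at 85.4%. Right, deposited states of the intron and distal peaks on chromosome 1 (y axis, %) in the 4 sets. ARID1B-alone peaks had more enhancer states (65.7%) than ARID2-alone peaks (45.3%).

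The ARID2-alone peaks were spread over many genes. They were assigned to 2009 gene names, of which 1586 had 1 peak and 108 had 3 or more. Of these names, 1545 (76.9%) also had an ARID1A or ARID1B peak somewhere, near the 77.5% of all ARID2 gene names. The most frequent names, U6 (30 peaks), Metazoa_SRP (20), Y_RNA (17) and snoU13 (13), are repeated names of small RNA genes on 14, 11, 12 and 7 chromosomes and stand for no single locus. Among single loci, AC006076.1, AC096772.6, TRIM71 and ZNF217 had 8 peaks each. ZNF217, a zinc finger gene of chromosome 20 that is amplified in several cancers, was the nearest gene of 8 intron-class peaks, 6 with SNF5. Of these, 7 lay within 17267 bp (chr20:52196659-52213925). The peaks ran to position 52238236, past the edge of ZNF217 at 52226446, so not all 8 lay in this gene. At AC096772.6, 7 peaks within 31894 bp on chromosome 2 all had SNF5. At TRIM71, 2 of 8 peaks had SNF5. FOXQ1, a forkhead factor gene, had 7 distal peaks, 5 with SNF5, and ZNRF3, which encodes a ubiquitin ligase that removes Wnt receptors from the membrane, had 7 intron peaks, 2 with SNF5. CMIP and AC083949.1 also had 7 peaks each. Of 2697 peaks, 351 lay within 1000 bp of another and formed 168 groups of at most 4.

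ARID2-alone peaks were assigned to between 3.85 and 36% of the genes of each list examined. Over all protein-coding names of the annotation, 1253 of 20149 (6.22%) had such a peak, and 5585 had any ARID2 peak. The AP-1 list, at 5.88%, and the neuronal list, at 3.85%, were below 6.22%. The lists below were not tested against the counts over all names. Genes with any ARID2 peak numbered 18 in the hepatocyte factor list and 22 in the plasma protein list. Of 25 hepatocyte transcription factor genes, 9 had one, with 11 peaks of which 8 had SNF5. HNF4A, a master regulator of hepatocyte genes, had an intron peak of 238 bp (chr20:43032346-43032583), 2538 bp from the start, and NR1H4, the gene of the bile acid receptor FXR, had 2, of 494 and 197 bp, with an ARID1B peak at 331 and 1161 bp and no ARID1A peak nearer than 208583 bp. All 3 were overlapped by SNF5. Of 51 genes of secreted plasma proteins, 4 had one, AFP, CP, ORM2 and TF. AFP, the fetal albumin-like protein that HepG2 cells secrete, had peaks of 204, 202, 190 and 64 bp, none overlapped by SNF5, and the widest lay 16 bp from an ARID1B peak.

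Of 30 Wnt pathway genes, 7 had an ARID2-alone peak, 15 peaks in all, every one in an intron and 6 of them with SNF5. They included the feedback inhibitors AXIN2, RNF43, NKD1 and ZNRF3 and the effector gene TCF7L2. Of 24 Hippo and TEAD pathway genes, 6 had one, including the coactivator gene YAP1, with an intron peak of 593 bp (chr11:102062757-102063349) that had an ARID1B peak at 127 bp and the nearest ARID1A peak at 80040 bp. Of 34 TGF-beta and SMAD genes, 10 had one, 18 peaks with SNF5 at 6, including the receptor gene TGFBR2 (380 bp) and SMAD3 (270 bp). Of 38 genes of lipid and cholesterol metabolism, 9 had one, the widest at PNPLA3, which encodes a lipid droplet protein (502 bp, with SNF5 and with the nearest other ARID peak at 781548 bp). Of 30 genes of the insulin and IGF axis, 9 had one, 14 peaks with SNF5 at 4, including FOXO3, IGF2R and IRS1. Of 28 SWI/SNF subunit genes, 4 had one, ACTL6A, BCL7A, SMARCC1 and SS18L1. The AP-1 list had 1 gene of 17, FOSL1, and the list of loci that the study displayed or tested 2 of 16, MYC and SPOCK2. Of the lists for other tissues, 1 of 26 neuronal genes (CSMD1, 3.85%) and 2 of 21 blood cell genes (RUNX1 and RUNX3, 9.52%) had one. Genes with any ARID2 peak numbered 17 in the Wnt, 13 in the Hippo, 22 in the TGF-beta and 26 in the lipid list. They numbered 16 in the insulin, 18 in the SWI/SNF and 9 in the AP-1 list. The study's loci had 7, the neuronal list 4 and the blood cell list 2.

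In base composition the ARID2-alone peaks lay between the genome and promoters. In 300 bp windows their median GC content was 47.0% (quartiles 41.7 and 52.7%) and their median CpG count 4, against 51.0% and 6 for shared intron and distal ARID2 peaks, 59.7% and 18 for all other ARID2 peaks, and a genome mean GC of 40.9%. ARID1A-alone peaks were at 52.3% and ARID1B-alone peaks at 45.7%.

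The motifs searched on both strands were AP-1 (TGANTCA), FOXA (TGTTTAC), HNF4 (CAAAGTCCA), C/EBP (TTGCNCAA), HNF1 (GTTAATNAT), the GATA motif (AGATAA), TEAD (CATTCCA), the CTCF core (AGGGGGC), the E-box (CACGTG), the GC box (GGGCGGG), ETS (CCGGAAG), NRF1 (GCGCATGCG), YY1 (AAGATGGCG), a REST half-site (TTCAGCACC), a CA repeat (CACACACA), a GGAA repeat (GGAAGGAA) and a telomere repeat (TTAGGGTTA). No pattern contains another, but ETS with the GGAA repeat, and the CTCF core with the GC box, can share bases. A match is a run of letters and not a bound site.

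The motif shares of ARID2-alone windows are given first beside those of the other 10298 ARID2 peaks, most of which were of the promoter class that the rule left out. The GC box was in 4.52% of them, against 31.0% of other ARID2 peaks, 24.1% of all peaks of the 4 lists and 1.53% of genome tiles. ETS was in 1.78%, against 9.54, 7.48 and 0.705% in the same order, the CTCF core in 5.60%, against 13.8, 12.2 and 2.56%, and the E-box in 5.41%, against 7.79, 6.57 and 2.73%. GATA was in 15.8%, against 8.41% of other ARID2 peaks, 10.4% of all peaks and 21.2% of genome tiles, so that it was below the genome share. TEAD was in 6.41%, against 3.57, 4.42 and 5.56%, FOXA in 6.34%, against 3.63, 4.80 and 4.67%, and AP-1 in 9.94%, against 6.07, 8.16 and 9.31%. HNF4 was in 1.45%, against 0.845, 1.26 and 0.385%, C/EBP in 4.23%, against 2.72, 3.66 and 3.55%, and HNF1 in 1.26%, against 0.602, 0.944 and 1.33%. These shares move with base composition, and its part in them was not tested.

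Among the remaining motifs, the CA repeat was in 4.71% of ARID2-alone windows and 3.43% of all peaks, the GGAA repeat in 3.78 and 3.45%, the REST half-site in 0.371 and 0.420%, the telomere repeat in 0.222 and 0.166%, NRF1 in 0.111 and 1.96% and YY1 in 0.111 and 1.26%. Between ARID2-alone peaks with and without SNF5, HNF4 was in 1.90 and 1.08%, HNF1 in 1.74 and 0.874%, and FOXA in 6.36 and 6.32%.

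Beside the 3 sets of the same classes, none of the 7 liver and enhancer motifs was more frequent in ARID2-alone peaks than in all of them. The shared intron and distal ARID2 peaks, the ARID1A-alone and the ARID1B-alone peaks held AP-1 at 12.8, 11.2 and 12.1%, HNF4 at 2.30, 1.52 and 1.75%, and C/EBP at 6.45, 4.36 and 5.44%, each above the ARID2-alone share. In the same order, FOXA was at 9.50, 4.99 and 7.06%, HNF1 at 1.71, 1.05 and 1.21%, TEAD at 4.75, 5.67 and 7.26%, and GATA at 13.6, 11.5 and 17.8%, on either side of it. The GC box was at 14.4, 11.7 and 3.16%, ETS at 2.89, 3.26 and 1.65%, the CTCF core at 9.79, 10.3 and 4.07%, and the E-box at 6.97, 5.72 and 3.14%, so that ARID2-alone peaks lay between ARID1B-alone peaks and the other 2 sets for these 4 motifs.

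**Figure D5:**
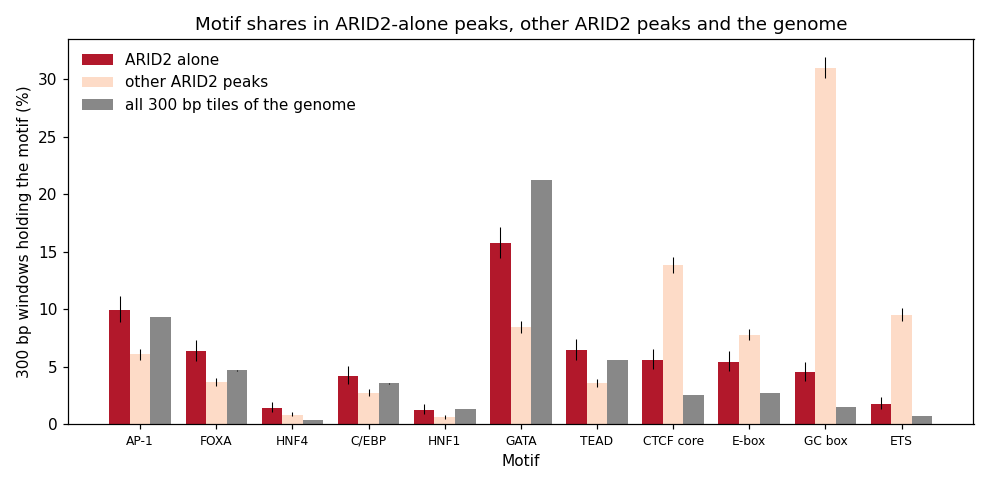
Share of 300 bp windows holding each of 11 motifs (y axis, %) in ARID2-alone peaks, all other ARID2 peaks and all genome tiles, with 95% Wilson intervals. The GC box stands at 4.52% in ARID2-alone peaks and 31.0% in other ARID2 peaks, most of which were of the promoter class.

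The density of ARID2-alone peaks and their SNF5 share varied between chromosomes. Chromosome 20 held 148 peaks, or 23.5 per 10 Mb, of which 71.6% had SNF5, and chromosome 16 held 171, or 18.9 per 10 Mb, of which 59.7% had SNF5. Chromosome 17 held 165, or 20.3 per 10 Mb, with SNF5 at 46.1%, and chromosome 19 held 100, or 16.9 per 10 Mb, with SNF5 at 40%. The density of all ARID2 peaks on chromosomes 20, 16, 17 and 19 was 93.5, 93.3, 129 and 111 per 10 Mb. Chromosome 4 held 78, or 4.08 per 10 Mb, with SNF5 at 23.1%, and chromosome 13 held 54, with SNF5 at 25.9%. The share of intron and distal ARID2 peaks that were alone was 53.9% on chromosome 6, 55.7% on chromosome 17 and 56.2% on chromosome 16, against 84.2% of 19 peaks on chromosome 21 and none of 7 on chromosome Y. DNA copy number was not analysed here. Taken within chromosomes, the odds ratio of SNF5 overlap for ARID2 alone against shared was 0.0729.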

How the data were processed

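ChIP-seq libraries of HepG2 cells, 2 for each of 4 antibodies and 1 input, were used as deposited peak lists. Per the study's methods, the authors aligned 50 bp single-end reads to hg19 with bowtie2, removed duplicates, merged the 2 replicates, called broad peaks with MACS2 at q of 0.01, joined peaks within 100 bp, removed blacklisted regions and assigned the nearest gene and feature class. The authors deposited a score with the SNF5 list, copied here without change, and none with the ARID lists. No read counts were used, so the depth is unknown. The input library was not analysed here. The deposited label of single or multiple ARID binding was not used.

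Overlap was computed from coordinates in Python 3.11.15 (pandas 2.3.3, scipy 1.17.1, statsmodels 0.14.6, pysam 0.24.0), with at least 1 bp counting as shared. Sets were compared by two-sided Fisher exact tests with Benjamini-Hochberg adjustment over 6 planned comparisons of SNF5 overlap and enhancer state, and over 6 added comparisons of first introns and start distance, and by Mantel-Haenszel tests within strata. Scripts were tested on simulated data. GC, CpG and motifs were read from GRCh37 in 300 bp windows at peak midpoints. Gencode v44 on GRCh37 gave introns and starts. Of the ARID2-alone peaks, 1998 had a gene name found there on the same chromosome, and 97.2% of these had a start within 1000 bp of the deposited distance. The deposited chromatin state was checked between overlapping peaks of different lists and agreed far less outside chromosome 1, so that values for chromosome 1 stand beside those planned for all chromosomes.

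Regions named were the 5 widest intron and distal peaks, the 5 under the highest SNF5 scores, those nearest to the limit of the rule, the genes with the most peaks, and examples from 12 gene lists. The examples were chosen mainly by width, but not strictly in that order. An item that these rules would name is not reported here. Clusters of peaks and single chromosomes were named after their values had been seen. The peaks, lists and motifs were chosen with earlier results of these data known. Alternatives were other overlap, score, width and distance limits, joined peaks, intron or distal peaks only, autosomes only, strata of width, distance and chromosome, and chromosome 1 alone or left out.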

Additional observations from a re-analysis of the deposited data

How the results depend on the processing

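The lower SNF5 overlap of ARID2-alone than of shared ARID2 peaks kept its direction and its call under every alternative run. The enhancer values over all chromosomes rest on states that could not be tied to their peaks, so that their stability supports nothing, and against ARID1B alone the usable value is that of chromosome 1 (odds ratio 0.432). Of 160 values under alternatives, 119 kept direction and call, or for a share stayed in its 95% interval and for the number of peaks within 1.5 times, 26 lost the call, 11 moved and 4 reversed. Depth and peak enrichment limit every share, since a weak SNF5 or ARID site missing from a list counts as absent. No alternative without a replicate was possible, because the 2 libraries of an antibody were merged in the lists. No paired analysis was possible because the deposited lists carry no replicate numbers. Alternatives on single chromosomes, within chromosomes and within distance strata, and all those of first introns and start distance, were chosen after seeing the data. The cause of the changes below was not tested.

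With no other ARID within 1000 bp, 1626 peaks remained and their SNF5 share was 31.9%. The odds ratios of SNF5 overlap were then 0.883 to ARID1A alone (adjusted p = 0.160) and 0.918 to ARID1B alone, a reversal, and that of the enhancer state to ARID1A alone 0.838, all from Fisher's exact test. At or above the median width, 892 peaks remained, with SNF5 at 55.6% and another ARID within 1000 bp at 42.9%, and the odds ratios were 1.06 for SNF5 to ARID1B alone and 0.810 for the enhancer state to ARID1A alone. On autosomes the SNF5 odds ratio to ARID1B alone was 1.10. In intron peaks the SNF5 odds ratios were 0.858 to ARID1A alone and 1.01 to ARID1B alone. In distal peaks SNF5 to ARID1A alone gave 0.925, the enhancer state 0.956 to shared and 0.946 to ARID1A alone, and a start within 5000 bp 1.18 to shared and 1.11 to ARID1A alone. With joined peaks, SNF5 to ARID1A alone gave 0.893.

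The SNF5 share moved to 2.15% with a reciprocal overlap of 50%, 70.6% with a gap of at most 1000 bp, 39.7% with midpoints within 500 bp and 33.0% with SNF5 peaks at or above the median score. The odds ratio to ARID1B alone reversed to 0.573 and 0.954 under the first and the third, and that to ARID1A alone to 1.06 under the second. Within width strata the SNF5 odds ratios were 0.886 to ARID1A alone and 1.11 to ARID1B alone, and the enhancer one to shared 0.843. Within distance strata SNF5 to ARID1A alone was 0.900. Within chromosomes the SNF5 odds ratios were 0.888 to ARID1A alone and 1.09 to ARID1B alone, and the enhancer one to shared 0.887. On chromosome 1 the enhancer share was 45.3%, and 24.8% without it. There the odds ratios that lost their call were 0.942 and 1.16 for SNF5 to ARID1A and ARID1B alone, 0.811 and 0.726 for the enhancer state to shared and ARID1A alone, and 1.19 and 1.72 for first introns to shared and ARID1A alone.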
